A study of Mus musculus with 6 samples.

Results

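Vmp1 and 37 other genes of the autophagy machinery were followed in L929, a mouse fibroblast line, in libraries labelled control and STING KO. The 38 genes were chosen by symbol, from the ER scramblases to the fusion machinery, out of 27507 gene identifiers in the deposited table. All 38 were listed, and 35 of them were tested, having reached 10 or more in at least 3 libraries. Poly(A) RNA was sequenced from 3 control libraries, whose genotype label is WT, and from 3 libraries labelled STING KO. The labels name no treatment and no infection, and they do not say whether the knockout cells are 1 clone or a pool, how the gene was disrupted, or whether replicates are separate cultures. The p-values below therefore measure only the spread between these libraries, which may be technical.

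Autophagy encloses cytoplasm in a double membrane that grows from the endoplasmic reticulum (ER), seals, and fuses with the lysosome. A kinase complex around ULK1 starts the process, a lipid kinase complex marks the membrane with phosphatidylinositol 3-phosphate (PI3P), lipid transfer and scrambling proteins enlarge it, and a conjugation cascade attaches ATG8 proteins such as LC3 to it, which cargo receptors bind. STING is a receptor for cyclic dinucleotides in the ER membrane, and once activated it leaves the ER and is known to trigger the attachment of LC3 to membranes. VMP1 and TMEM41B are ER membrane proteins that scramble phospholipids between the leaflets and are needed for normal autophagosome formation.

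Values are normalized counts, that is, gene counts that the authors divided by a size factor of each library. Log2 fold changes are STING KO minus control, on log2(normalized count + 0.1), from limma, a linear-model test fitted to the whole table, and a gene is called where its adjusted p is at or under 0.05. Library totals were 14382072 to 14526606 normalized counts, and the 38 genes took 0.289% to 0.299% of each total. Sting1, listed as Tmem173, was at 329, 313 and 311 in the controls and at 82.1, 80.6 and 93.4 in STING KO, so the RNA level followed the labels in all 6 libraries. Its mean in STING KO was still 26.9% of control, and there are no values for the protein. Of 12 fibroblast markers 10 were tested and 0 were called. Their summed level was 190142 to 202244 in the controls and 203679 to 217604 in STING KO, with Dcn and Lum at or near 0 in 4 libraries. Transcripts typical of hepatocytes set 2 libraries apart. The sum of 10 such markers was 528, 215 and 4664 in the controls and 4440.0, 569 and 242 in STING KO, so control replicate 3 and STING KO replicate 1 were high. Macrophage and leukocyte markers summed to 817 to 977 in the controls and 846 to 1018 in STING KO, and endothelial markers to at most 22.8. Most of the macrophage and leukocyte sum was Cd68, at 670, 771 and 702 in the controls and 784, 749 and 860 in STING KO. The highest value of the other markers in that list was 97.4, Lyz2 in control replicate 3, and Ptprc was at most 13.0. Epithelial markers summed to 440.3 to 509 in the controls and 496 to 604 in STING KO, with Krt5 listed at 0. Most of that sum was Krt8, a keratin, at 413, 469.8 and 439 in the controls and 544, 477 and 547 in STING KO (log2 fold change 0.25, limma adjusted p = 0.717); its part in the results was not tested. Control replicate 2 and STING KO replicate 3 stood apart in another way, by a trend of expression with transcript length that is described with the results it touches.

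Vmp1 fell in STING KO cells to 74.7% of its control level, and it was the 1 member called. The gene (ENSMUSG00000018171, GRCm38 chr11:86583865-86683836, minus strand, a coding gene) was measured at 2817, 2914 and 2743 normalized counts in the controls. In STING KO it was at 2118, 2102 and 2114. Every STING KO library was thus below every control library, and the gap between the groups was wider than the spread within either. The means were 2825 ± 85.7 and 2111 ± 8.48 (SD, n = 3 each), and the log2 fold change was -0.42 (SE 0.05, 95% interval -0.52 to -0.31, limma adjusted p = 0.00348 over 12408 genes). In the authors' deposited table the log2 fold change of Vmp1 is -0.42 (SE 0.06) and its adjusted p is 7.79e-09. Of all genes tested 0.258% were called, and all 32 of those were lower in STING KO. Vmp1 was chosen with this decrease already known, so these values describe the gene and give no independent support.

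The call of Vmp1 was lost in 3 of the alternatives. It was lost with the replicate number as a block (log2 fold change -0.42, limma adjusted p = 0.157), without control replicate 1 (-0.42, 0.0561) and without both libraries with hepatocyte transcripts (-0.44, 0.231). Across the alternatives run the log2 fold change ran from -0.44 to -0.40. The block, which is balanced over the groups, and the filters on low values cannot change this value. Only alternatives that leave out libraries or alter the values themselves can move it. In bulk RNA, less Vmp1 RNA per cell and fewer cells with much Vmp1 RNA cannot be told apart.

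**Figure D1:**
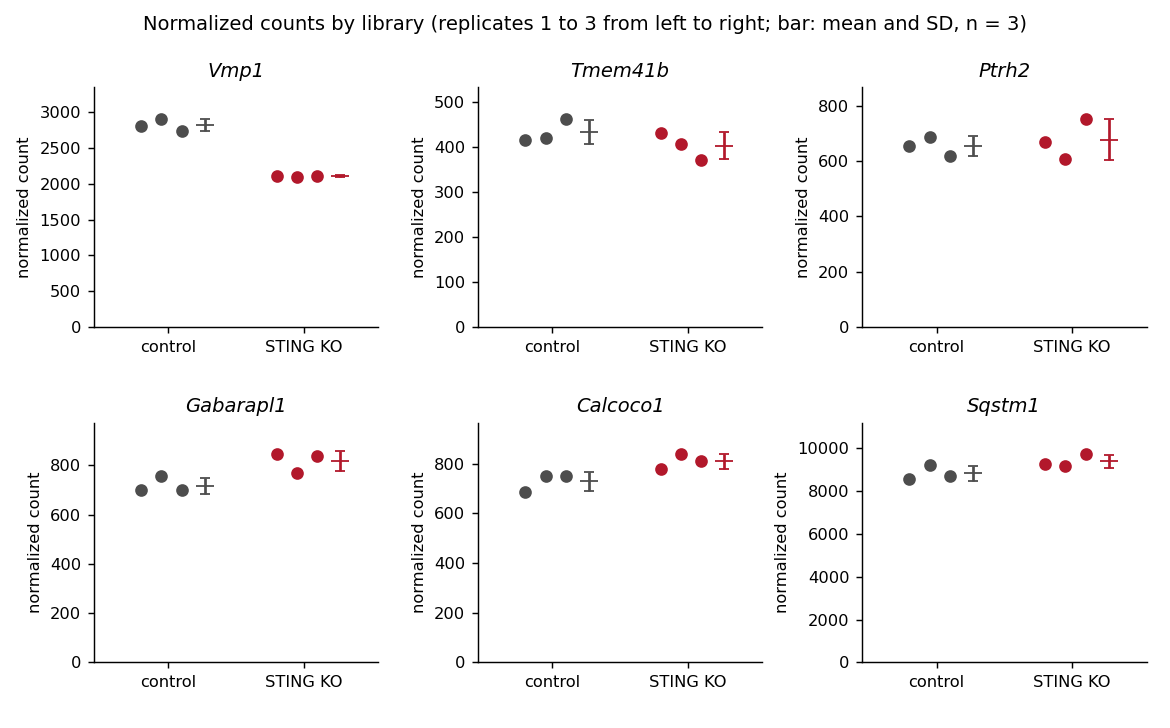
Normalized counts of Vmp1, Tmem41b, Ptrh2, Gabarapl1, Calcoco1 and Sqstm1 in each library, with grey points for control, red points for STING KO, and the mean and SD of 3 libraries beside them. Vmp1 lies at 2743 to 2914 in the controls and at 2102 to 2118 in STING KO, while Tmem41b, Ptrh2 and Sqstm1 overlap between the groups.

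Among the called genes Vmp1 combined a high level with a small change. It had the 2nd highest mean normalized count of the 32 called genes, and only 1 called gene had a smaller absolute fold change. Over all 12408 genes tested, 96.8% had a smaller absolute fold change than Vmp1, and it ranked 22 by p.

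The Vmp1 promoter region is shown because the gene starts back to back with a neighbour that was not called. Ptrh2, which encodes the mitochondrial peptidyl-tRNA hydrolase 2, starts 149 bases from Vmp1 and runs the other way. The 148 bases between both starts, from RefSeq on GRCm38.p6, are chr11:86683837-86683984, printed on the minus strand in the direction of Vmp1. Capitals mark, from left to right, a match to the classical kB consensus (NF-kB sites, on the opposite strand, 99 bases before the Vmp1 start) and the ETS site CCGGAAGT (17 bases before it).
Vmp1_Ptrh2_stretch: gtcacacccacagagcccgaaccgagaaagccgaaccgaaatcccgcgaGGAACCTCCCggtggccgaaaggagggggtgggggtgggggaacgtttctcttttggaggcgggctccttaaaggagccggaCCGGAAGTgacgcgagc

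Both motifs also stand in many other promoters, and a match is a description of letters, not a bound site. On both strands, the kB consensus was found in 8.46% of 32851 mouse promoter windows (250 bases before to 50 after a start), and CCGGAAGT in 3.89%. RefSeq windows were matched for 31 of the 38 members, 36 windows in all. The kB consensus was in 3 of these 36 windows, of Vmp1, Sqstm1 and Atg101, a share near that of all windows. CCGGAAGT was in 4 of the 36, windows of Vmp1, Tmem41b, Gabarapl2 and Atg101. Vmp1 has 3 windows, and its kB and CCGGAAGT matches are both in window 1 only. The palindrome TTCNNNGAA, bound by STAT factors, was in windows of Gabarap, Gabarapl1, Nbr1, Stx17 and Wipi1 (8.30% of all windows), and CACGTG, the E-box of the TFEB family, in windows of Atg3, Atg5, Atg7 and Atg14 (7.15%). The AP-1 site TGANTCA was in 0 member windows and in 7.81% of all windows. None of these motifs overlaps another in window 1 of Vmp1.

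No neighbour of Vmp1 within 100 kb was called. Ptrh2, which shares the printed stretch, was at 654, 688 and 617 normalized counts in the controls and at 670.1, 607 and 753 in STING KO (log2 fold change 0.05, limma adjusted p = 0.872). Its groups overlapped in full. The ratio of Vmp1 to Ptrh2 was 4.31, 4.23 and 4.45 in the controls and 3.16, 3.46 and 2.81 in STING KO, a mean log2 difference of -0.47. On the other side, Tubd1, a tubulin of the delta family, had a log2 fold change of -0.10, Rps6kb1, the S6 kinase downstream of mTORC1, -0.11, and Rnft1, an ER ubiquitin ligase, 0.03. Cltc, the clathrin heavy chain, had -0.12, and Gm11478, a processed pseudogene inside an intron of Vmp1, 0.07.

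The last of the 12 exons of Vmp1 (chr11:86583865-86585451) also holds the hairpin of the microRNA gene Mir21a on the same strand, at chr11:86584067-86584158. Mir21a is listed at 0 in all 6 libraries, so the table gives no value for the microRNA. A longer precursor of Mir21a, if present, would share the strand and this last exon of Vmp1, so the Vmp1 counts may hold its reads. This was not tested. Hairpins and mature microRNAs carry no poly(A) tail and are not what such libraries capture. Its mature products are shown because the Vmp1 transcript passes through them; capitals mark the seed, bases 2 to 8, and the sequences are RefSeq's on GRCm38.p6.
mmu-miR-21a-5p: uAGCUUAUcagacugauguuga
mmu-miR-21a-3p: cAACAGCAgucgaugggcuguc

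Tmem41b, the other ER scramblase, was not called. It was at 415, 420.0 and 463 normalized counts in the controls and at 431, 407 and 371 in STING KO, with overlapping groups (log2 fold change -0.10, SE 0.08, 95% interval -0.28 to 0.07, limma adjusted p = 0.744). The ratio of Vmp1 to Tmem41b was 6.78, 6.94 and 5.92 in the controls and 4.92, 5.16 and 5.70 in STING KO. The groups of this ratio did not overlap, although control replicate 3 and STING KO replicate 3 lay close. The mean log2 difference was -0.32, and an exact two-sided permutation test gave p = 0.1, the smallest value that 3 libraries against 3 allow, so it cannot pass 0.05. Because Vmp1 was chosen with its decrease known, this ratio and the other Vmp1 ratios are descriptions too. Within the transcript of Tmem41b, 871 bases are nearly identical to Gm6223, so its counts may hold reads of that gene.

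Beside Vmp1, limma called none of the other 34 tested members. With 0.258% of all genes called, 0 does not set these members, or the smaller blocks below, apart from all genes. Of the 34 members, 19 had a positive and 15 a negative log2 fold change. Their median was 0.01, against -0.00 over all genes tested, and they ranged from -0.10 in Tmem41b to 0.21 in Atg101. Single libraries moved both ends. At the extremes, Atg101 was at 0.34 without control replicate 2 and 0.13 without control replicate 3. Tmem41b was at -0.15 without STING KO replicate 1 and -0.05 without STING KO replicate 3. At an unadjusted p of at most 0.05 there were Gabarapl1 and Calcoco1, beside Vmp1, which is 3 of 35 members (8.57%) against 6.37% of all genes; Gabarapl1 and Calcoco1 were the 2 higher ones, a direction that 3.2% of all genes had at this p. The groups did not overlap in 5 of 35 members, Vmp1, Uvrag, Atg3, Gabarapl1 and Calcoco1, a share of 14.3% against 12.1% of all genes tested. Both shares were close to those of all genes. In the authors' deposited table, where 0.294% of genes are called, all other tested members have an adjusted p of 1. Exons of 11 members, Sqstm1, Gabarapl1, Rb1cc1 and Uvrag among them, overlap a gene on the opposite strand, and without a stated strand setting the reads of such partners cannot be told apart.

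The intervals of these members were narrow, but they measure only the spread between these libraries. The 95% interval lay within 1.25-fold in both directions for 31 of 34 and within 1.5-fold for all 34, against 61.5% and 85.4% of all genes tested. Genes were tested from a value of 10 in 3 libraries, whereas the lowest member, Atg10, had a control mean of 103. Genes of matched level were not compared. The exceptions at 1.25-fold were Atg101, Atg10 and Gabarapl1. The lowest bound was 0.802-fold, in Rb1cc1, and the highest 1.38-fold, in Atg101. For 33 of 34 members the interval did not overlap that of Vmp1, which also held for 74.3% of all genes. The exception was again Rb1cc1.

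**Figure D2:**
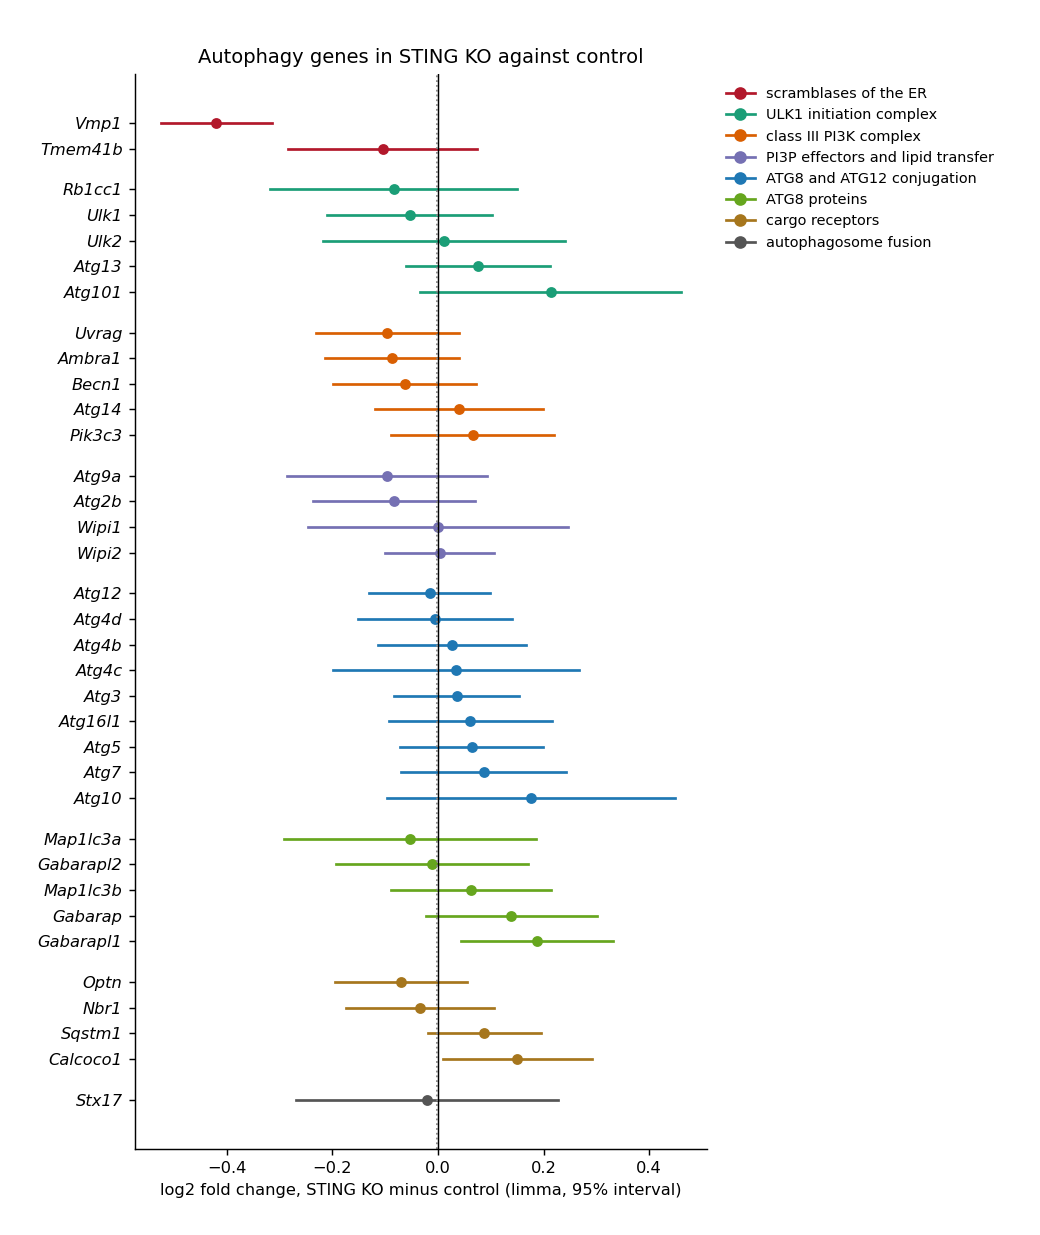
Log2 fold changes of the 35 tested members (STING KO minus control, points) with 95% intervals from limma (bars), coloured and blocked by role, with a dotted line at the median of all genes tested. Vmp1 lies at -0.42, and the other members lie between -0.10 and 0.21.

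The ratio of Vmp1 to nearly all other members was lower in STING KO. It was lower in each STING KO library than in each control library over 33 of 34 members, against 80.6% of all other genes. The exception was Rb1cc1, with a Vmp1 ratio of 4.72, 5.26 and 4.18 in the controls and 3.57, 3.32 and 4.36 in STING KO. Only STING KO replicate 3, where Rb1cc1 was low, crossed into the control range.

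The ULK1 complex, which starts autophagy, had 0 of 5 members called, and its genes overlapped between the groups. Ulk1, the kinase, was at 809 ± 50.3 normalized counts in the controls and 779 ± 44.3 in STING KO (SD, n = 3 each). Its paralogue Ulk2 was at 470.2 and 474, and the adaptor Atg13 at 1003 and 1056. Atg101, which stabilizes ATG13, was at 294, 373 and 280.2 in the controls and at 350.4, 350.5 and 389.6 in STING KO (log2 fold change 0.21, limma adjusted p = 0.738). Control replicate 2 alone reached the STING KO range of Atg101. Rb1cc1, the scaffold FIP200, was at 597, 554 and 656 in the controls and at 593, 633 and 485 in STING KO (log2 fold change -0.08), with its lowest value in STING KO replicate 3.

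The class III PI3-kinase complex, which makes PI3P, had 0 of 5 members called. Uvrag, the subunit of its endosomal form, was at 979, 882 and 903 in the controls and at 862, 841 and 881 in STING KO (log2 fold change -0.10, limma adjusted p = 0.738). Its groups were separated only by the difference between 882 and 881. Becn1, the scaffold Beclin 1, was at 883 ± 44.0 and 845 ± 26.1, and Ambra1, which binds it, at 789.6 ± 25.6 and 743 ± 14.8 (SD, n = 3 each). Pik3c3, the lipid kinase itself, was at 312 and 327, and Atg14, which brings the complex to the ER, at 338 and 348. These genes had log2 fold changes from -0.10 to 0.07, with both signs.

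The genes that read PI3P and move lipid had 0 of 4 tested members called. Wipi2, the PI3P-binding protein that recruits ATG16L1, had the narrowest interval of the members, with 3484, 3551 and 3358 in the controls and 3427, 3439 and 3549.8 in STING KO, a log2 fold change of 0.00 with a 95% interval from -0.10 to 0.11. Its paralogue Wipi1 was at 472 ± 48.1 and 473 ± 61.9 (SD, n = 3 each). Atg9a, the scramblase of small vesicles that seed the membrane, was at 505 and 473, and Atg2b, a lipid transfer protein between the ER and the growing membrane, at 1217 and 1150.2. Its paralogue Atg2a is listed at 0 in all 6 libraries. None of these genes is an ER scramblase, and the log2 fold changes of the 4 ran from -0.10 to 0.00. Within the transcript of Atg9a, 1832 bases are nearly identical to Gm29253, and within that of Atg2b 383 are to Gskip. Their counts may hold reads of those genes.

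The conjugation genes had 0 of 9 tested members called, and 7 of the 9 had a positive log2 fold change. Atg7, the E1-like enzyme, was at 398 ± 18.3 in the controls and 423 ± 18.3 in STING KO (SD, n = 3 each). Atg3, the E2-like enzyme for ATG8 proteins, was at 831, 819 and 816 in the controls and at 837, 832 and 857 in STING KO, groups that did not overlap but differed little (log2 fold change 0.04, SE 0.05, limma adjusted p = 0.842). Atg10, the E2-like enzyme for ATG12, had the lowest normalized count of the tested members before any correction for length, at 94.8, 95.8 and 117 in the controls and 106, 121 and 119 in STING KO (log2 fold change 0.18). The genes for the ATG12-ATG5-ATG16L1 complex, which directs LC3 to membranes, had log2 fold changes from -0.02 to 0.06, with Atg5 at 583 and 609, Atg12 at 1246 and 1232, and Atg16l1 at 640.4 and 667. Of the ATG4 proteases, which trim and release ATG8 proteins, Atg4b was at 967 and 985, Atg4c at 287 and 295 and Atg4d at 1066 and 1059. Atg4a is listed at 0 in all 6 libraries, and 2115 bases of its transcript are nearly identical to the pseudogene Atg4a-ps.

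The ATG8 genes had 0 of 5 members called, and Gabarapl1 had the smallest p among the members beside Vmp1. It was at 699, 755 and 698 in the controls and at 845, 769.6 and 836 in STING KO. All STING KO libraries of Gabarapl1 were above all control libraries, by a small margin. The log2 fold change was 0.19 (SE 0.06, 95% interval 0.04 to 0.33, limma unadjusted p = 0.0162, adjusted p = 0.733). Gabarap, the most abundant ATG8 gene, was at 5280.4, 6030.2 and 5218 in the controls and at 5797, 5792 and 6609.6 in STING KO (log2 fold change 0.14, limma adjusted p = 0.738), with control replicate 2 and STING KO replicate 3 highest in their groups. The LC3 genes Map1lc3b, at 940.4 and 982, and Map1lc3a, at 277 and 268, overlapped between the groups, and so did Gabarapl2, at 281 and 279. Map1lc3b and Gabarapl2 share nearly identical stretches with several other genes, so their single values are uncertain.

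The cargo receptors had 0 of 4 members called. Calcoco1, a receptor for the autophagy of ER and Golgi membranes, was at 686, 749 and 751 in the controls and at 777, 838 and 810.4 in STING KO. Its groups did not overlap (log2 fold change 0.15, SE 0.06, 95% interval 0.01 to 0.29, limma unadjusted p = 0.0391, adjusted p = 0.738). Sqstm1, which encodes p62, the receptor for ubiquitinated cargo, was at 8555, 9223 and 8696 in the controls and at 9239, 9177 and 9718 in STING KO (log2 fold change 0.09, limma adjusted p = 0.738). Its groups overlapped by 1 control library. Nbr1, a receptor that binds with p62, was at 2217 ± 96.5 and 2168 ± 149, and Optn, the mitophagy receptor optineurin, at 972 ± 38.9 and 926 ± 19.1 (SD, n = 3 each).

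Of the fusion genes 1 of 2 was tested and 0 were called. Stx17, the SNARE of the closed autophagosome, was at 363, 343 and 367 in the controls and at 363, 408 and 295 in STING KO (log2 fold change -0.02). Its STING KO libraries spread more widely than its control libraries. Epg5, a tether of autophagosomes to lysosomes, is listed at 0 in all 6 libraries.

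A value of 0 for Atg2a, Atg4a and Epg5 cannot be read as absent expression. Of 21033 protein-coding identifiers, 4241 (20.2%) are listed at 0 in every library, among them genes that most cells use, such as Nrbf2, a subunit of the PI3-kinase complex, and the SNARE gene Vamp8. These entries were not tested, and the table does not say why they are 0.

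Levels of different members were compared per kb of the principal transcript. In control, Sqstm1 had 4332 normalized counts per kb, Gabarap 4078, Wipi2 1768 and Vmp1 1014. Nbr1 followed at 463 and Atg3 at 399. Vmp1 thus stood well above its partner Tmem41b, at 113 per kb, and it kept the 4th place in STING KO at 758 per kb. The lowest were Stx17 at 62.0 and Atg10 at 64.8 per kb in the controls, both within the spread of their libraries of each other. The ranges of Sqstm1 and Gabarap over the libraries overlapped.

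**Figure D3:**
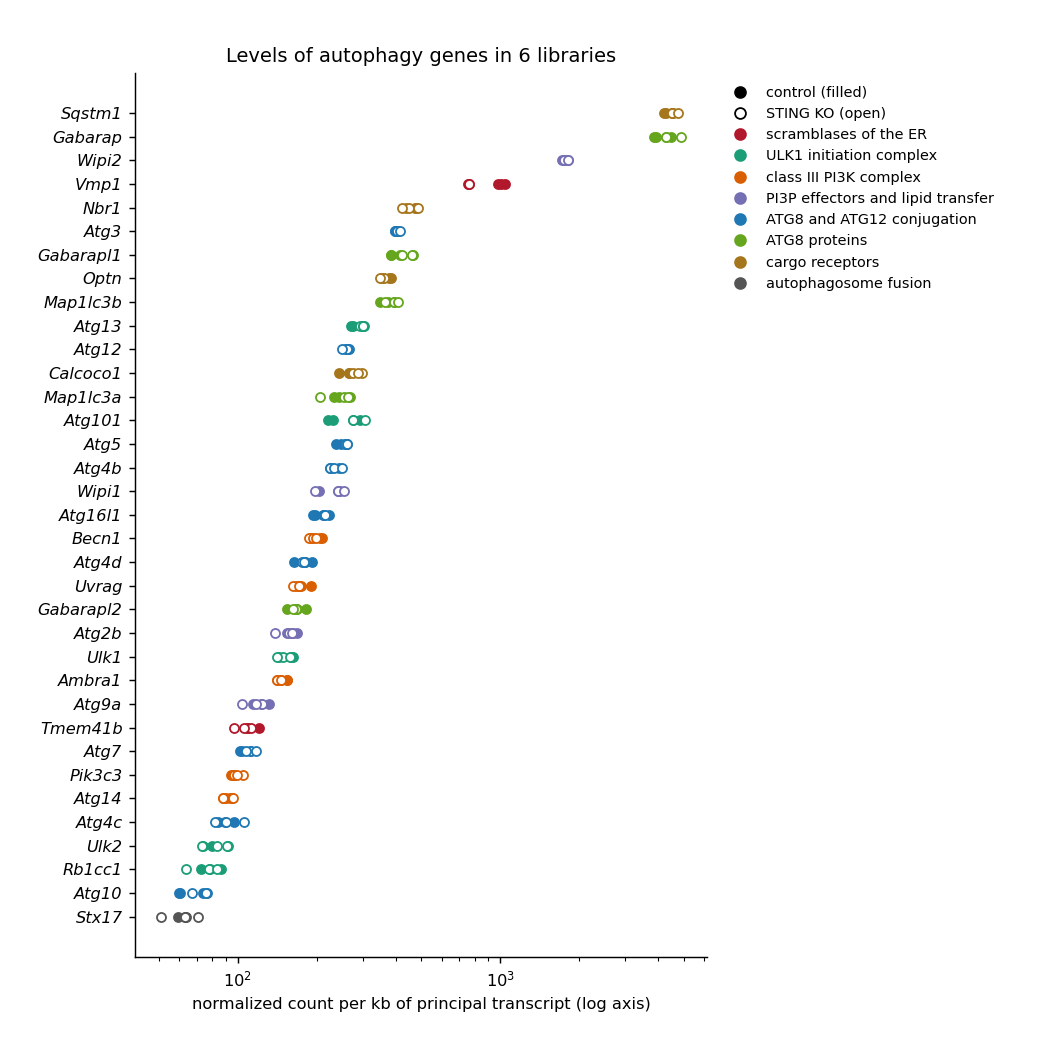
Normalized counts per kb of principal transcript (log axis) for the 35 tested members in each library, filled points for control and open points for STING KO, coloured by role. Vmp1 is the 4th highest member in both groups, at 1014 per kb on average in the controls and 758 in STING KO, and its groups do not overlap.

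The small differences of the other members went along with transcript length. Across the 35 tested members, the log2 fold change and the log2 length of the principal transcript had a Pearson correlation of -0.42 and a Spearman correlation of -0.55, as a description; over 11841 genes they were -0.24 and -0.41. All points come from the same 6 libraries. Of the 18 members with a transcript of up to 3257 bases, 14 had a positive log2 fold change, and of the 17 longer ones 5 had. The members with the largest positive values, Atg101, Gabarapl1 and Atg10, are all short, and the lipid kinase regulators Uvrag and Ambra1, with negative values, are long.

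Single libraries also differed along length. The difference of STING KO replicate 3 from the other STING KO libraries had a Spearman correlation with length of -0.52 over members and -0.48 over all genes. For control replicate 2 against the other controls it was -0.47 and -0.46, and for STING KO replicate 2 it had the opposite sign, 0.48 and 0.43. In STING KO replicate 3, Stx17 was 0.38 below the mean of the other STING KO libraries on the log2 scale, Rb1cc1 0.34 and Wipi1 0.33 below, while Map1lc3a was 0.20, Gabarap 0.19 and Atg101 0.15 above it. Of these, Wipi1 is short, at 2050 bases. Vmp1, of medium length at 2787 bases, differed by 0.00 in that library.

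**Figure D4:**
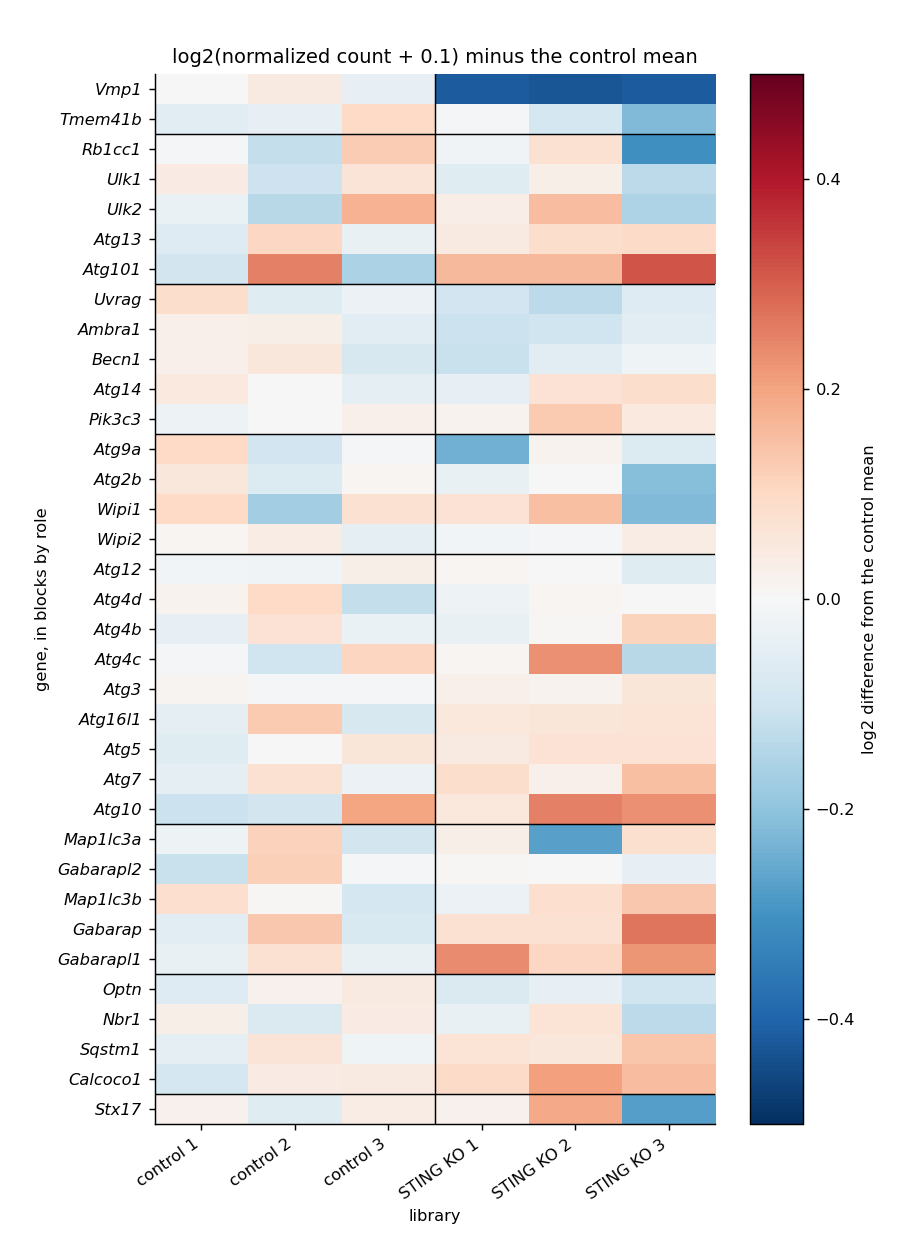
Each tested member (rows, in blocks by role) in each library (columns), as log2(normalized count + 0.1) minus the control mean, with blue for lower and red for higher. Vmp1 is lower by about the same amount in all 3 STING KO libraries, whereas other members, such as Rb1cc1, Wipi1 and Stx17, are lowest in STING KO replicate 3.

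With the trend on length removed, 24 of the other 34 members had a positive value, 12 of 17 in the shorter and 12 of 17 in the longer ones. Over these 34 members, without Vmp1, the Spearman correlation with length moved from -0.60 to -0.19. That fit takes out each library's trend on length, so a weaker correlation was built in. Without STING KO replicate 3, 22 of the 34 were positive and the correlation was -0.35. With upper-quartile scaling in place of the authors' scaling, 22 of the other members were positive in place of 19; that scaling moved all genes alike, with a median of 0.02 in place of -0.00. Vmp1 stayed called in all 3 of these fits, at a limma adjusted p of 0.000272 with the trend removed, 0.00306 without STING KO replicate 3 and 0.00643 with upper-quartile scaling.

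**Figure D5:**
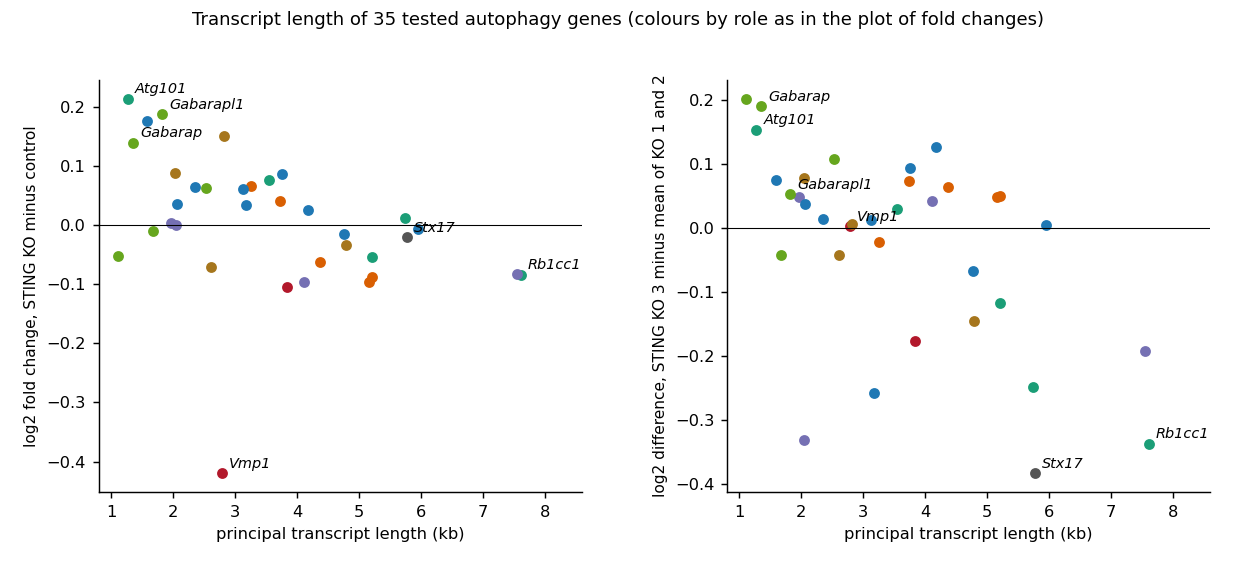
Length of the principal transcript (kb) of the 35 tested members against their log2 fold change (left) and against the log2 difference of STING KO replicate 3 from the mean of STING KO replicates 1 and 2 (right), coloured by role. Vmp1 lies apart on the left at -0.42 and near 0 on the right, whereas Stx17 and Rb1cc1, with long transcripts, lie lowest on the right.

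Beyond the 38 genes, 94 of 95 related genes were listed and 87 were tested. Limma called 0 of them, and the authors' deposited table also calls 0. With 0.258% of all genes called, 0 does not set these 87 genes, or the shorter lists below, apart from all genes. Of the 87, 5 (5.75%) had an unadjusted limma p of at most 0.05. Their median log2 fold change was -0.01, with 39 positive and 48 negative values, and the groups did not overlap in 9 of 87 (10.3%). Both shares were close to the 6.37% and 12.1% of all genes for the 87 genes together; single lists differed, with the groups apart in 3 of 12 mitophagy genes and 3 of 14 further core genes.

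In the mTORC1, AMPK and nutrient sensing genes, 0 of 29 were called. Fnip2, a partner of folliculin at the lysosome, was at 929, 838 and 914 in the controls and at 719, 821 and 583 in STING KO (log2 fold change -0.35, limma adjusted p = 0.712). Flcn, folliculin itself, was at 873, 829 and 753 in the controls and at 773, 673 and 706 in STING KO (-0.19, adjusted p = 0.738). Fnip2 did not overlap between the groups and was lowest in STING KO replicate 3, and Flcn overlapped.

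The mitophagy genes had 0 of 12 called. Bnip3, a mitophagy receptor induced by hypoxia, was at 405, 356 and 445 in the controls and at 472, 549.6 and 457 in STING KO (log2 fold change 0.29, limma adjusted p = 0.732). Bnip3l, its paralogue NIX, was at 1535, 1709 and 1686 in the controls and at 1768, 1881 and 1865 in STING KO (0.16, adjusted p = 0.738). The groups did not overlap for either gene, and neither passed the threshold.

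The remaining lists had 0 called genes each, out of 14 further core autophagy genes, 12 fusion genes, 10 transcription factors and 10 ER-phagy receptors. Wdr45, a PI3P-binding paralogue of the WIPI proteins, was low, at 42.9, 58.9 and 53.6 in the controls and at 68.3, 68.7 and 65.3 in STING KO (log2 fold change 0.39, limma adjusted p = 0.738). Smcr8, which works in a complex with C9ORF72, had a log2 fold change of -0.20, the SNARE gene Snap29, which pairs with STX17, -0.12, and Plekhm1, an adaptor of the late endosome, 0.05. Foxo4, a transcription factor of the forkhead family, had 0.19. The ER-phagy receptor genes Tex264 and Atl3 had 0.16 and -0.14.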

How the data were processed

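The authors deposited 1 table in which each library has a signal per gene, counts divided by a size factor. This was read from the values, which are 100% whole multiples of 1 step per column within 0.01, with steps of 0.990 to 1.00. Per the file headers the authors' own test is there too, as a log2 fold change with standard error and Wald score, and p-values raw and adjusted. Per the submitters' processing notes the tools include DESeq2 1.4.5, RSEM 1.2.12, Bowtie2 2.2.5 and HISAT2 2.0.4, with builds GRCm38 and mm10. Annotation and strand setting: not given in the sources used here. Exons of 12 members overlap another gene, and 12 hold a stretch of at least 200 bases with at least 95% identity to another gene, so reads may be shared. The members with such a stretch are Tmem41b, Rb1cc1, Becn1, Atg14, Uvrag, Atg2b, Atg9a, Atg4a, Atg4d, Map1lc3b, Gabarapl1 and Gabarapl2. The longest stretches are in Atg4a (2115 bases), Atg9a (1832) and Becn1 (1299), and Uvrag shares stretches with 15 genes.

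The first row of each of 27507 identifiers was used (27821 rows). Log2(normalized count + 0.1) was tested in R 4.3.3 by limma 3.58.1, its mean-variance trend included, on 12408 genes that reached 10 in 3 or more libraries. Benjamini-Hochberg adjusted p-values at or under 0.05 were called. The fold changes can understate those of low genes. Ratios were compared by an exact permutation test. Transcript lengths are those of GENCODE M21. The members, lists and alternatives were chosen with earlier results of these data known. Named genes are all members, Sting1, the neighbours of Vmp1 within 100 kb and the 2 smallest p of each related list, of which 1 gene is not reported here. The planned edgeR and DESeq2 alternatives were not run, because a check of the units did not accept the columns as recovered reads. Same-numbered replicates did not deviate together (correlations -0.18, -0.18 and -0.49), and replicate numbers were taken as names. These correlations cannot exclude a shared culture or batch.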

Additional observations from a re-analysis of the deposited data

How the results depend on the processing

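Over all genes, 32 were called. The count was 18 with the replicate block, 13 without both libraries with hepatocyte transcripts, 132 (91 lower, 41 higher) without control replicate 2 and STING KO replicate 3 together, and 49 (44 lower, 5 higher) with the trend on length removed; these last settings were chosen after seeing the data. Leaving out 1 library gave 21 to 35, with 21 without control replicate 1. Vmp1 was the 1 member called, and 0 members were called with the replicate block, without control replicate 1 and without both libraries with hepatocyte transcripts. Its log2 fold change was -0.42 (limma adjusted p = 0.157) with the block and -0.44 (0.231) without both hepatocyte libraries. Leaving out 1 library gave -0.44 to -0.40, at adjusted p of 0.00306 to 0.0561. Each of these fits has fewer residual degrees of freedom, and the cause of the losses was not tested. The log2 difference of the ratio of Vmp1 to Tmem41b was -0.39 to -0.27 when 1 library was left out. The related genes had 0 called under every alternative run. For the other 34 members, all 578 values under an alternative stayed short of the threshold, and 38 of them, in 14 members, changed sign. The labels do not say whether replicates of equal number belong together, so the lost call under the block cannot be set aside. A block balanced over the groups cannot change the log2 fold change of Vmp1, and the SE under it was 0.07 in place of 0.05. edgeR and DESeq2 were planned on recovered reads and were not run.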
